A study of Mus musculus with 4 samples.

Results

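The expression of 10 genes of lipid synthesis and lipid storage (Scd1, Scd2, Fasn, Acaca, Acly, Srebf1, Insig1, Plin2, Lpl and Fabp3) was followed in mouse mammary epithelial cells. They were taken by name from the 31053 genes of the count matrices, and all 10 were present. Levels were read as UMI counts (unique molecular identifiers, each standing for 1 captured transcript) summed over the cells of each epithelial class in each of 4 single-cell libraries. The mice were of the FVB strain, with both copies of Tfap2c floxed (Tfap2c fl/fl), and had the transgene Krt5-CreERT2, a Cre recombinase that is made in cells using the Krt5 promoter and is activated by 4-hydroxytamoxifen (4OHT). Corn oil, the vehicle, was injected into 2 mice and 4OHT into the other 2, daily for 5 days from week 4 of age (the sample characteristics give 5 days, the treatment text 1 week), and the fourth mammary glands were collected at week 9. Every mouse carried both the floxed gene and the Cre, so the groups differed by the injection, and effects of 4OHT itself cannot be told apart from those of Cre activity. The series asked what loss of Tfap2c, the gene of the transcription factor AP-2γ, does to mammary stem cells.

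The libraries held between 17351950 and 22017878 UMIs over 18223 cell barcodes, and 155 barcodes occurred in more than 1 library. Of the 17832 cells with at least 1000 UMIs, 7028 were classed as basal, 5629 as luminal progenitor and 1168 as hormone-sensing luminal cells from the UMIs of keratins, Acta2 and 6 luminal genes, and 4007 stayed unassigned. None of the 10 lipid genes was used in that rule. Markers outside the rule went with the names: Cnn1, a smooth muscle protein, averaged 658 CPM (counts per 1e6 UMIs of the sum) in basal cells and 13.3 in progenitor cells, Elf5 averaged 140 CPM in progenitor and 1.59 in basal cells, and Prlr averaged 527 CPM in hormone-sensing and 26.4 in progenitor cells. Tfap2c itself stood at 389 and 285 CPM in basal cells of the corn oil libraries and at 285 and 325 CPM in those labelled 4OHT, so it was not lower in both of the latter. A 3′ count does not show whether a floxed exon was removed, so the assignment to treatment rests on the labels alone.

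Fatty acid synthesis starts in the cytosol, where Acly makes acetyl-CoA from citrate, Acaca carboxylates it to malonyl-CoA, and Fasn builds the saturated chain. Scd1 and Scd2 are desaturases that place a double bond into that chain, and Srebf1 encodes SREBP-1, a transcription factor that drives these genes, while Insig1 holds the SREBP precursors in the endoplasmic reticulum. Plin2 coats cytoplasmic lipid droplets and is found on milk fat globules, Lpl releases fatty acids from circulating lipoproteins, and Fabp3 carries fatty acids inside the cell. The lactating gland is known for very high activity of this pathway in its milk-secreting luminal cells, whereas the glands here came from young mice that the labels do not describe as pregnant or lactating.

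On the genome (GRCm38), Scd1 (ENSMUSG00000037071) is a minus-strand gene of chromosome 19, bases 44394455 to 44407879, and Scd2 (ENSMUSG00000025203) is a plus-strand gene of the same chromosome at bases 44293674 to 44306864. The mouse genome holds further near copies of these desaturases, so reads shared among them could have been lost or split in the authors' counting. Plin2 (ENSMUSG00000028494) is on chromosome 4 from 86648386 to 86670060, Srebf1 (ENSMUSG00000020538) on chromosome 11 from 60199089 to 60222581, both on the minus strand, and Insig1 (ENSMUSG00000045294) in the plus direction on chromosome 5, bases 28071363 to 28078662. Srebf1 is overlapped on the other strand by Rai1, Acaca by Gm11437, and Fabp3 by Zcchc17 and Gm10570. Since use of strand in the counting is not given in the sources used here, reads of these partners cannot be told apart. On the same strand, Acaca is overlapped by Gm37391, Srebf1 by Mir6921 and Mir6922, Scd2 by Mir5114 and Acly by Mir7116.

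RefSeq promoter windows (GRCm38.p6) matched 7 of the 10 genes, all but Scd1, Scd2 and Lpl, and that of Fabp3 held no base outside annotated exons. Those of Plin2, Insig1 and Srebf1 are shown because Plin2 differed in all 3 comparisons between classes, and because Srebf1 and Insig1 were over 2-fold apart between the libraries numbered 1 and 2 in basal cells. Each is printed 5′ to 3′ on the strand of its gene, ends before the first annotated exon base, and has in capitals the letters CCAAT or their complement ATTGG (the CCAAT box) and CACGTG (an E-box, here the same on both strands). Of the 3 start sites that RefSeq gives for Srebf1, the one shown is the farthest downstream; a 3′ count does not tell these starts apart.
Plin2, chr4:86670061-86670309, minus strand: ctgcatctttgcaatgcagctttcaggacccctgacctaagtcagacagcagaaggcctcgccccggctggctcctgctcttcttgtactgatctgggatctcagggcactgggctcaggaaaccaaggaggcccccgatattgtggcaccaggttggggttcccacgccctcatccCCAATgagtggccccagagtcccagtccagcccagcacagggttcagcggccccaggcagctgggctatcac
Insig1, chr5:28071162-28071362, plus strand: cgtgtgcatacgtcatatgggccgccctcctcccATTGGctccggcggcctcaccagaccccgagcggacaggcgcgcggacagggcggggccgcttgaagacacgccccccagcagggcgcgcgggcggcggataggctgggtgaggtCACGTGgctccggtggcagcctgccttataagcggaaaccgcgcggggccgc
Srebf1, chr11:60210472-60210721, minus strand: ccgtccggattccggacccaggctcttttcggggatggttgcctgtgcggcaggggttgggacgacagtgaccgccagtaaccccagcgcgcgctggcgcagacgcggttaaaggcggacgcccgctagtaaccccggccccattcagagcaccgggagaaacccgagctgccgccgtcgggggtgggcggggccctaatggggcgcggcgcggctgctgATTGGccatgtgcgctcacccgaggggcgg
The CCAAT box, searched on both strands, occurred in 33.8% of 32851 RefSeq promoter windows and CACGTG in 6.02%. The letters TCACNCCAC, a sterol regulatory element searched on both strands, occurred in 1.05% of the windows and in none of those of the members, and no match shown overlaps another. No match says only that these letters are not in the window.

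The 10 genes did not share 1 pattern across the epithelial classes. Scd1 and Plin2 were highest in luminal progenitor cells, Scd2 was highest in hormone-sensing cells, and Acaca and Insig1 were lowest in hormone-sensing cells. Fasn passed the test in none of the 3 class comparisons. Classes were compared within libraries with edgeR's quasi-likelihood test on 12 sums, with library as a block and Benjamini-Hochberg adjustment over all 11135 genes tested. The classes differed widely: 56.1% of all genes passed the threshold of 0.05 between progenitor and basal cells, 59.8% between hormone-sensing and basal cells, and 46.4% between hormone-sensing and progenitor cells. Of the 10 genes, 9 had enough counts to be tested, and Fabp3 did not.

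**Figure D1:**
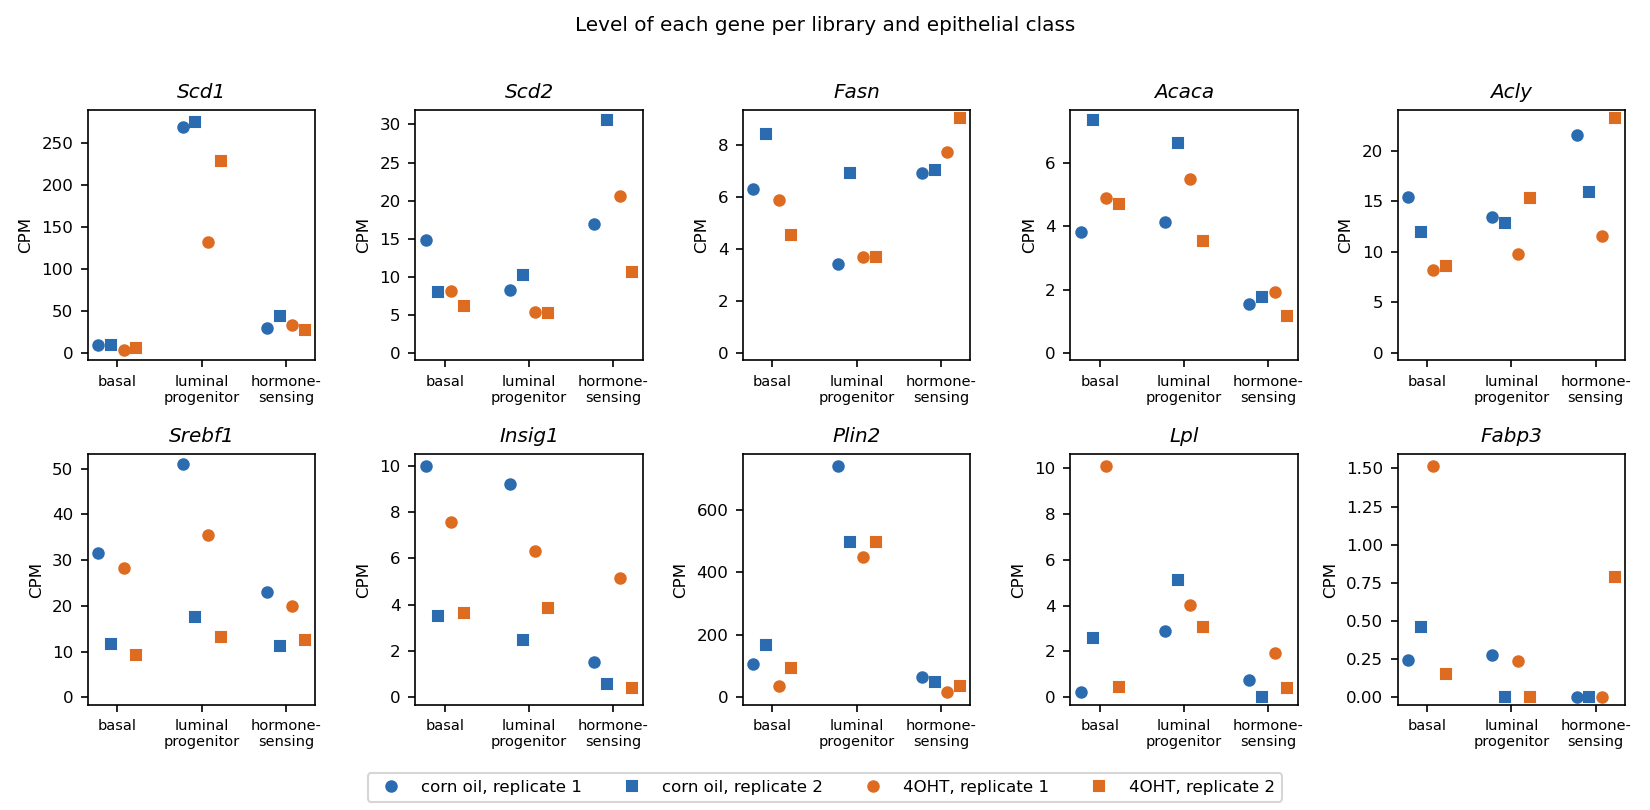
Level of each of the 10 genes in CPM (vertical axis, linear, a different range in each panel) in the 3 epithelial classes (horizontal axis). Each point is the sum over the cells of 1 library and class, with colour giving the injection and shape the replicate number; Scd1 and Plin2 stand highest in progenitor cells in all 4 libraries, Scd2 in hormone-sensing cells in all 4, and Srebf1 is higher in both libraries numbered 1 in every class.

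Among the desaturases, Scd1 stood at 269 and 275 CPM in progenitor cells of the corn oil libraries and at 132 and 229 CPM in those labelled 4OHT. In basal cells the same libraries gave 10.3, 9.33, 3.87 and 5.77 CPM, and in hormone-sensing cells 30.1, 44.1, 33.5 and 27.2 CPM. All 4 libraries thus had the order progenitor, hormone-sensing, basal, with no overlap between classes. In such sums, fewer cells with a transcript and fewer transcripts per cell cannot be told apart. The log2 fold change was 5.22 ± 0.21 (SE) for progenitor against basal cells (adjusted p = 1.46e-11, edgeR) and 2.27 ± 0.22 for hormone-sensing against basal cells (adjusted p = 2.4e-07, edgeR). Against progenitor cells, hormone-sensing cells had a log2 fold change of −2.95 ± 0.19 (adjusted p = 7.77e-09, edgeR).

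Scd2, the other desaturase measured, had a different order. Its levels in hormone-sensing cells were 17.0, 30.6, 20.6 and 10.6 CPM (corn oil 1 and 2, then 4OHT 1 and 2), against 8.26, 10.2, 5.36 and 5.31 CPM in progenitor cells. Basal cells gave 14.8, 7.95, 8.08 and 6.22 CPM. Each library had more Scd2 in its hormone-sensing cells than in either other class, by between 1.14- and 3.85-fold over basal and between 2.0- and 3.85-fold over progenitor cells. The log2 fold change was 1.11 ± 0.26 over basal (adjusted p = 0.00161) and 1.20 ± 0.26 over progenitor cells (adjusted p = 0.00135, both edgeR), while progenitor and basal cells differed by −0.10 ± 0.24 (adjusted p = 0.754, edgeR).

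Of the genes that build the chain, Acly was at 11.6 to 23.2 CPM in hormone-sensing cells, 9.76 to 15.3 CPM in progenitor cells and 8.25 to 15.4 CPM in basal cells. It was higher in hormone-sensing than in basal cells in 4 of 4 libraries (log2 fold change 0.73 ± 0.21, adjusted p = 0.00579, edgeR). Leaving out 4OHT replicate 2 gave 0.56, which did not pass. Its difference between progenitor and basal cells (0.49 ± 0.18, adjusted p = 0.0292, edgeR) was carried by 3 of 4 libraries. It was 0.22 (adjusted p = 0.346, edgeR) when sums were scaled by their totals alone, and 0.36 to 0.66 with 1 library left out. Over all members called between these 2 classes, 6 alternative values did not pass, that by totals among them. Acaca was low in all classes, with 2 or 3 UMIs in each hormone-sensing sum, and its log2 fold change there was −1.67 ± 0.36 against basal and −1.87 ± 0.36 against progenitor cells (adjusted p = 0.000757 and 0.000432, edgeR). It was lower in hormone-sensing cells in 4 of 4 libraries, although these counts are at or under the floor of 3 that was used to read low values. Fasn was between 3.44 and 9.06 CPM in all 12 sums. Its largest class difference, hormone-sensing over progenitor cells, was 0.62 ± 0.26 (adjusted p = 0.0639, edgeR), with 4 of 4 libraries on the same side, and it passed under 3 alternatives, the highest value being 0.86 with scaling by totals alone.

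Of the regulators, Srebf1 was at 51.1, 17.5, 35.6 and 13.2 CPM in progenitor cells (corn oil 1 and 2, 4OHT 1 and 2) and at 31.6, 11.6, 28.3 and 9.26 CPM in basal cells. Within each library the progenitor value was the higher, by 1.26- to 1.61-fold, although the values of the 2 classes overlap across libraries. The log2 fold change was 0.81 ± 0.16 (adjusted p = 0.000463, edgeR), and without the library block it was 0.83 and did not pass (adjusted p = 0.106). In hormone-sensing cells Srebf1 was at 11.2 to 23.1 CPM, below progenitor cells by a log2 of −0.95 ± 0.19 (adjusted p = 0.000672, edgeR), and by −1.09 without the library block, which did not pass. Insig1 was summed from 12 UMIs in the hormone-sensing cells of all 4 libraries, against 173 in basal and 159 in progenitor cells. Its log2 fold change in hormone-sensing cells was −1.74 ± 0.43 against basal and −1.84 ± 0.43 against progenitor cells (adjusted p = 0.00237 and 0.00232, edgeR), lower in 4 of 4 libraries in both comparisons. Of these 12 UMIs, 8 were in 4OHT replicate 1.

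Plin2, the droplet coat, stood at 742, 497, 448 and 499 CPM in progenitor cells, at 108, 168, 37.6 and 95.2 CPM in basal cells, and at 64.0, 47.6, 18.0 and 36.6 CPM in hormone-sensing cells (corn oil 1 and 2, 4OHT 1 and 2). Each library had the order progenitor, basal, hormone-sensing. The log2 fold change was 2.84 ± 0.25 for progenitor against basal cells (adjusted p = 7.5e-08), −1.26 ± 0.26 for hormone-sensing against basal cells (adjusted p = 0.000648) and −4.10 ± 0.28 for hormone-sensing against progenitor cells (adjusted p = 1.04e-08, all edgeR). Scd1 and Plin2 therefore shared their highest class and had opposite orders in the other 2, with Scd1 higher and Plin2 lower in hormone-sensing than in basal cells in 4 of 4 libraries.

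**Figure D2:**
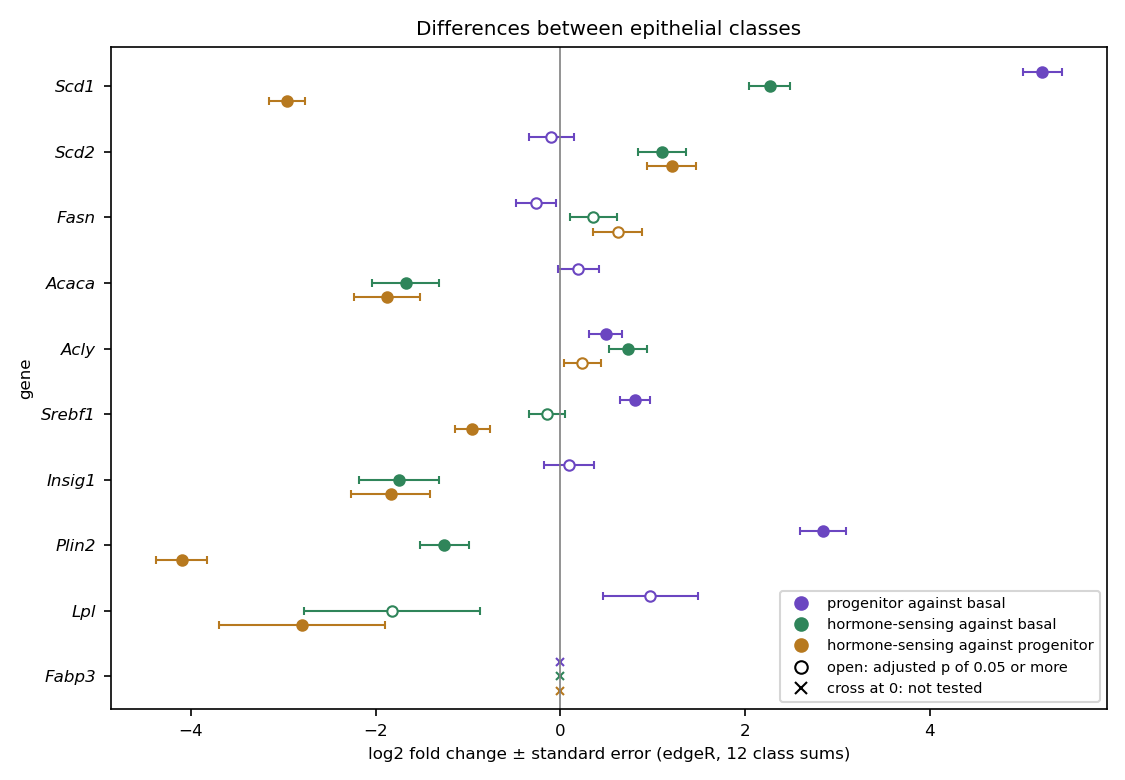
Log2 fold change with its standard error (horizontal axis) of each gene (vertical axis) in the 3 comparisons between classes, from the fit to 12 class sums. Filled points passed the adjusted threshold, open points did not, and a cross at 0 marks a gene that was not tested; the progenitor excess reaches 5.22 for Scd1 and 2.84 for Plin2, and the hormone-sensing points of Scd2 lie above 0 where those of Plin2 lie below.

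In counts, 4 of the 9 genes tested were higher in progenitor than in basal cells (26.6% of all genes tested were) and 0 were lower (29.5% of all). Between hormone-sensing and basal cells 3 were higher and 3 lower (27.3% and 32.4% of all genes), and between hormone-sensing and progenitor cells 1 was higher and 6 were lower (21.9% and 24.6% of all). The median log2 fold change of the 9 was 0.49, −0.14 and −1.84 in these comparisons, beside −0.04, −0.08 and −0.02 over all genes. Scaling by totals alone moved the median of all genes from −0.04 to −0.31 between progenitor and basal cells and from −0.02 to 0.23 between hormone-sensing and progenitor cells. The share of called genes that were higher moved with it, from 47.5% to 30.2% and from 47.1% to 64.0%. On that scale Scd1 still gave 4.95 and Plin2 2.57 for progenitor against basal cells.

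Lpl, the lipoprotein lipase, needs its cells named before its class values are read. Progenitor cells held 21, 31, 34 and 19 Lpl UMIs, spread over 14 to 28 cells per library with at most 3 UMIs in 1 cell. Basal cells held 2, 17, 60 and 3, and in 4OHT replicate 1, 55 of the 60 came from 1 cell. Of those 60 UMIs, 59 lay in cells with at least 3 UMIs of markers of 1 type among endothelial, fibroblast, pericyte, leukocyte and fat cells. With all cells kept, the progenitor against basal log2 fold change was 0.98 ± 0.52 (adjusted p = 0.121, edgeR). Without cells that had at least 3 UMIs over the markers of all these types together, it was 3.38 (adjusted p = 1.05e-05, edgeR). Without 4OHT replicate 1 it was 2.20 and also passed. Hormone-sensing cells held 0 to 3 Lpl UMIs per library, a log2 fold change of −2.80 ± 0.90 against progenitor cells (adjusted p = 0.0176, edgeR) that did not pass when corn oil replicate 2 or 4OHT replicate 2 was left out (−2.36 and −2.64) or without the library block (−2.60). Fabp3 gave 0 to 9 UMIs per class sum, 21 in all 12 sums together, and was not tested. No fold is given for it.

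Other cells of the preparation expressed the genes as well. Among unassigned cells, 151 with fibroblast markers held 117 Lpl UMIs (185 CPM, pooled over libraries) and 292 Plin2 UMIs (461 CPM). These cells numbered 4, 92, 37 and 18 per library (corn oil 1 and 2, 4OHT 1 and 2). In the same order they held 0, 77, 39 and 1 Lpl UMIs and 1, 174, 99 and 18 Plin2 UMIs. The 288 cells with endothelial markers had Fabp4, a fatty acid carrier of endothelial and fat cells, at 4777 CPM, Plin2 at 205 CPM and Scd1 at 7.73 CPM from 6 UMIs. At least 3 UMIs of fat cell markers were found in 3 unassigned cells, 1 with corn oil (replicate 2) and 2 in 4OHT replicate 2. The latter 2, in which no other type had more marker UMIs, held 29 Scd1 and 4 Lpl UMIs. Within the 3 classes, the 9 fat cell markers summed to between 0 and 15 UMIs per library and class (0 to 1.85 CPM). Adipoq, one of these markers, was at 0 there. It was also at 0 in the unassigned cells of all 4 libraries, so its absence does not set the classes apart from the cells with fat cell markers. Fibroblast markers were less even: they summed to 10.8 to 70.4 CPM in basal cells, 11.4 to 55.6 CPM in progenitor cells, and 53.5 to 1346 CPM in hormone-sensing cells, with the highest value in 4OHT replicate 1. Nearly all of this in hormone-sensing cells was 1 gene, Dcn, with 315 of 315, 86 of 91, 2058 of 2090 and 601 of 604 marker UMIs (corn oil 1 and 2, 4OHT 1 and 2), and Lum was at 0 in 3 of the 4 libraries. Leaving out cells by these markers therefore removes, in that class, mostly cells with Dcn. Without the cells that carried other-type markers, the class calls of Scd1, Scd2, Srebf1, Insig1, Acaca and Plin2 kept their direction and their side of the threshold. In corn oil replicate 1, however, Scd2 was then lower in hormone-sensing than in basal cells (12.5 against 14.5 CPM).

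Droplet libraries also carry free RNA, so the levels of Scd1 and Plin2 outside the progenitor class were set beside those of genes made mainly by progenitor cells. Basal cells had 1.41% to 3.33% of the progenitor level of Csn3, 1.45% to 2.74% of that of Wfdc18, 0.905% to 1.64% of that of Ltf, 1.42% to 4.47% of that of Cd14, 0.758% to 1.62% of that of Elf5 and 0.757% to 2.23% of that of Aldh1a3. Scd1 in basal cells was at 2.52% to 3.81% of its progenitor level, inside the range of Cd14, overlapping those of Csn3 and Wfdc18, and above those of Ltf, Elf5 and Aldh1a3. How much of the basal Scd1 was free RNA was not tested. The 7.73 CPM in cells with endothelial markers was close to the basal mean of 7.31 ± 3.00 CPM (SD, n = 4). Plin2 in basal cells was at 8.38% to 33.8% of its progenitor level, above the ranges of all 6 of these genes, and Srebf1 was at 62.0% to 79.5%.

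For hormone-sensing cells the rule itself selected against Csn3, Wfdc18 and Ltf, so 3 progenitor genes that it did not use are given. There Cd14 was at 2.78% to 7.02%, Elf5 at 1.53% to 9.86% and Aldh1a3 at 3.18% to 14.3% of the progenitor level. Scd1 was at 11.2% to 25.4% and Plin2 at 4.02% to 9.59%. The range of Scd1 overlapped that of Aldh1a3 and lay above those of Cd14 and Elf5, and the range of Plin2 overlapped all 3. How much of the Plin2 in hormone-sensing cells was free RNA was not tested.

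**Figure D3:**
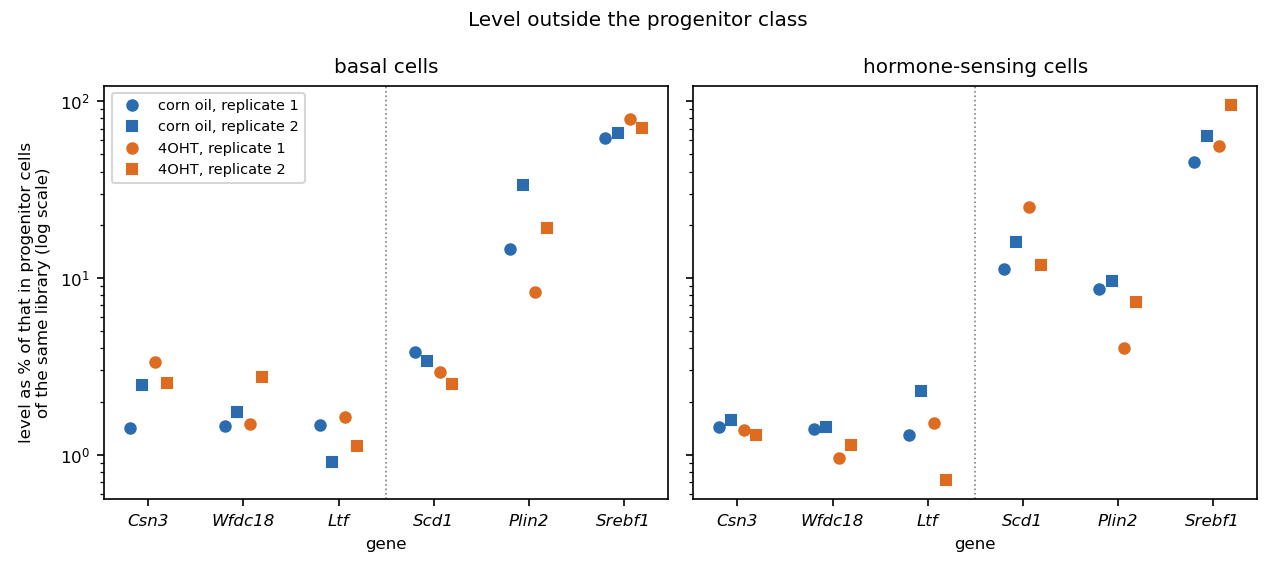
Level in basal cells (left) and hormone-sensing cells (right) as a percentage of that in progenitor cells of the same library (vertical axis, log scale). Left of the dotted line are the 3 progenitor genes Csn3, Wfdc18 and Ltf, and right of it Scd1, Plin2 and Srebf1. The class rule selected hormone-sensing cells against Csn3, Wfdc18 and Ltf, so their low values in the right panel follow from it. Each point is 1 library; in basal cells Scd1 lies at 2.52% to 3.81%, overlapping the range of Csn3 and above that of Ltf, whereas Plin2 and Srebf1 stand above the progenitor genes in all 4 libraries.

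Single progenitor cells differed widely in Scd1. Cells were thinned to 2000 UMIs each to compare shares, which left out 354 of the 5629 progenitor cells and 707 of the 7028 basal cells. The share of progenitor cells with a Scd1 UMI was then 23.6% with corn oil in replicate 1 (exact Clopper-Pearson 95% interval 21.3 to 26.1), 26.8% in replicate 2 (24.2 to 29.5), and 14.0% (12.3 to 15.8) and 20.7% (18.5 to 23.0) in the libraries labelled 4OHT. Both corn oil shares were above both others. The intervals cover counting error only and not the spread between mice. In basal cells the thinned shares were 0.534% to 1.98%, and before thinning 2.08% (6 of 288) of cells with endothelial markers had a Scd1 UMI at a median of 2147 UMIs, against 1.62% to 5.15% of basal cells at medians of 2827.5 to 5152.5 UMIs. The share in cells with endothelial markers lay within the range of the basal shares, at a lower median depth. A UMI of Csn3, a gene made mainly by progenitor cells, was found in 12.2% (35 of 288) of the cells with endothelial markers, and a Plin2 UMI in 26.0% (75 of 288). Whether those cells make Scd1 themselves was not tested.

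The 10% of progenitor cells with most Scd1 held 64.4% to 73.5% of all Scd1 UMIs in a library before thinning, with up to 38 to 52 UMIs in 1 cell, while 25.5% to 43.0% of cells had any. Plin2 was less concentrated, with 50.2% to 56.3% of UMIs in its top 10% of cells and a thinned share of cells with a UMI of 51.6%, 40.6%, 37.8% and 41.7% (corn oil 1 and 2, 4OHT 1 and 2). Across thinned progenitor cells the Spearman correlation of Scd1 with Plin2 was −0.02, 0.10, 0.02 and 0.05 over 1248, 1098, 1630 and 1299 cells. In sparse counts from cells that share a library, values can be small whether or not 2 genes are related. They are given as a description, and a relation was not tested.

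To see whether these genes go with milk protein genes inside the progenitor class, the 10% of progenitor cells with the highest share of UMIs from 6 milk genes (3 caseins, Wap, Lalba and Glycam1) was set against the rest of the same library, 113 to 177 cells against 1019 to 1593. Scd1 and Lpl were higher in the milk-gene-high cells and passed the test, and no member passed in the other direction. Of all 8514 genes tested, 7.08% passed, 3.9% as higher. The 9 members tested all had log2 fold changes above 0, with a median of 0.65 beside 0.00 over all genes.

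Scd1 rose from 244, 263, 118 and 209 CPM in the other cells to 453, 385, 254 and 383 CPM in the milk-gene-high cells (corn oil 1 and 2, 4OHT 1 and 2). It was higher in 4 of 4 libraries, by 1.47- to 2.15-fold, with a log2 fold change of 0.90 ± 0.14 (adjusted p = 0.00163, edgeR). Lpl went from 2.34, 4.24, 2.79 and 2.37 CPM to 6.89, 12.8, 14.7 and 8.33 CPM, a log2 fold change of 1.90 ± 0.34 (adjusted p = 0.00452, edgeR) that rested on 6 to 13 UMIs per library in the milk-gene-high cells. Without 4OHT replicate 1 it was 1.70 and did not pass. The milk-gene-high cells of that library had the lowest milk share, down to 0.0232% of UMIs, so the split does not mark the same milk level in each library.

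Acly and Srebf1 had log2 fold changes of 0.72 ± 0.24 and 0.52 ± 0.17, with 4 of 4 libraries higher, and did not pass (adjusted p = 0.0956 and 0.0849, edgeR; unadjusted p = 0.0103 and 0.00841). Plin2, already high in the other progenitor cells, was at 0.26 ± 0.13 (adjusted p = 0.252, edgeR), also with 4 of 4 libraries higher. The milk-gene-high cells had median UMI counts of 6529, 5245, 4558 and 4213 per cell against 5222, 4737, 4366 and 3394 in the others, and the part of this depth difference in the result was not tested. Without the library block Scd1 gave 0.90 and Lpl 1.90 and neither passed (adjusted p = 0.22 and 0.0623).

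**Figure D4:**
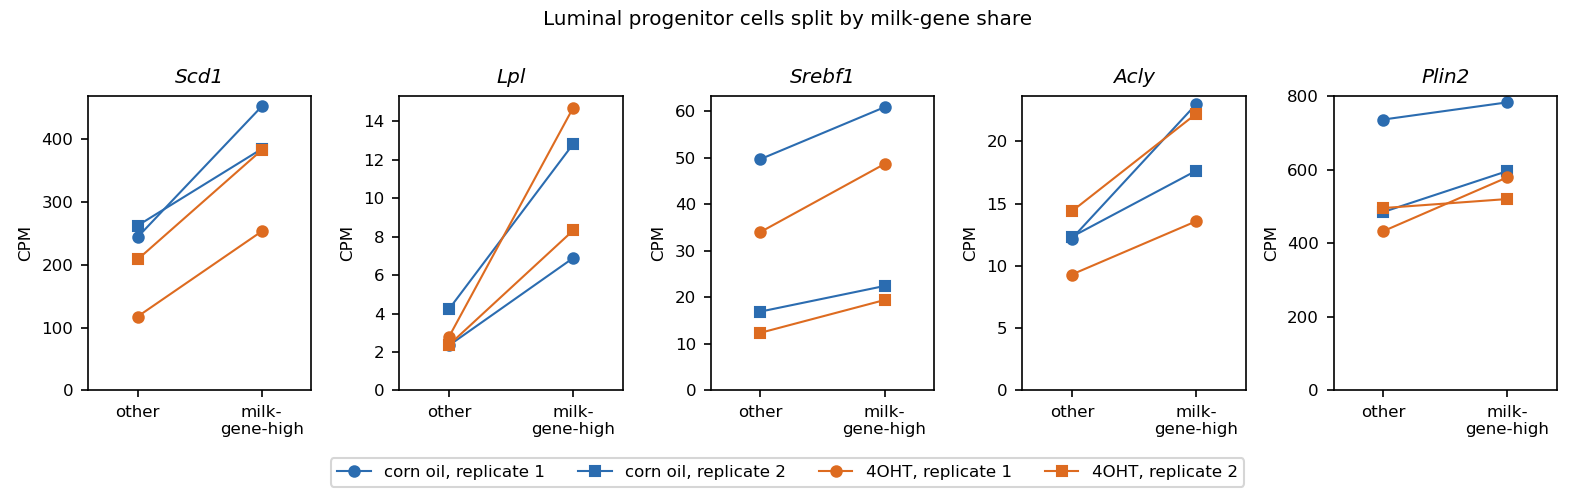
Level in CPM (vertical axis from 0, a different range in each panel) of 5 genes in milk-gene-high and other progenitor cells. Each line joins the 2 sums of 1 library; Scd1 and Lpl are higher in the milk-gene-high cells of all 4 libraries and passed the test, and Srebf1, Acly and Plin2 are higher in all 4 without passing.

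Other genes of the pathway were read from lists that were drawn up with earlier results of these data known, so their counts are a description. In the milk-gene-high comparison 3.9% of all 8514 genes tested were higher and 3.18% lower. Of 12 further genes of fatty acid synthesis and desaturation tested there, 1 was higher, Fads1, a desaturase of polyunsaturated fatty acids (0.81 ± 0.19 log2). Of 13 genes of the droplet coat, lipolysis and the milk fat globule, 6 were higher and 1 was lower. Btn1a1, a membrane protein of the milk fat globule (1.85 ± 0.20), Mfge8, another globule protein (1.37 ± 0.18), and G0s2, an inhibitor of the lipase that opens droplets (2.19 ± 0.29), were higher. Hilpda, a droplet protein known for its rise under low oxygen, was the lower one (−1.02 ± 0.21). Of 11 genes of fatty acid uptake and binding, 3 were higher, among them Acsl1, which activates fatty acids (1.35 ± 0.21), and Dbi, which binds acyl-CoA (0.98 ± 0.13), and 1 was lower. Of 20 genes of fatty acid oxidation 3 were higher, among them Acadm (0.92 ± 0.17), and of 13 SREBP pathway regulators 0 passed the edgeR test (2 at an unadjusted p under 0.05).

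Between progenitor and basal cells, where 26.6% of all genes tested were higher and 29.5% lower, genes of each list given here moved in both directions. Of 14 further synthesis genes 8 were higher and 4 lower, led by Me1, which supplies NADPH (126 ± 32.4 against 29.2 ± 11.6 CPM, SD, n = 4, log2 2.41 ± 0.16). Of 13 droplet and globule genes 8 were higher and 2 lower. Btn1a1 (6.10 ± 0.29), Mfge8 (2.78 ± 0.16) and Abhd5, a lipolysis co-activator (1.99 ± 0.17), were higher in progenitor cells, and Hilpda was lower (62.2 ± 15.9 against 360.1 ± 90.4 CPM, log2 −2.26 ± 0.14). Of 13 uptake and binding genes 5 were higher and 4 lower, with Dbi at 2.33 ± 0.15 and the lipoprotein receptor gene Vldlr at −2.0 ± 0.25. Sterol synthesis and uptake genes counted 10 higher and 1 lower of 19, and the SREBP regulators 5 higher and 3 lower of 15.

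The lists were also counted between hormone-sensing and basal cells, where 27.3% of all genes tested were higher and 32.4% lower. Of 11 glycerolipid synthesis genes 7 were higher and 1 lower than in basal cells, led by Dgat2, which makes triglyceride (139 ± 71.2 against 17.4 ± 4.68 CPM, SD, n = 4, log2 2.94 ± 0.30). Against progenitor cells Dgat2 differed by a log2 of 4.33 ± 0.33. Of 13 uptake and binding genes 2 were higher and 5 lower than in basal cells, with Fabp5 at 8.69 ± 1.09 against 273 ± 142 CPM (log2 −4.98 ± 0.39), and of 13 droplet and globule genes 5 were higher and 5 lower, G0s2 at −4.56 ± 0.45. Of 21 fatty acid oxidation genes 14 were higher and 3 lower, with Etfb at 2.18 ± 0.18 and Pdk4 at −4.86 ± 0.33.

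The comparison that the study was made for, 4OHT against corn oil, left no member past the threshold. In basal cells, the class that makes Krt5, 0 of 10788 genes passed the edgeR test (0.0%), with 465 at an unadjusted p under 0.05 (4.31%), and DESeq2 called 38. In progenitor cells 0 of 10120 passed (0.0%), with 166 at an unadjusted p under 0.05 (1.64%), and DESeq2 called 1. In hormone-sensing cells 1 of 7589 passed (0.0132%), with 240 at an unadjusted p under 0.05 (3.16%), and DESeq2 called 7. That gene, named after its value was seen, was Ctsr, a cathepsin with close copies, at 1.54 and 3.53 CPM in the corn oil libraries and 58.6 and 51.2 CPM in those labelled 4OHT (adjusted p = 0.0383, edgeR).

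The signs of the members' values are given as a description. In basal cells 8 of the 9 tested had log2 fold changes below 0, as did 51.9% of all genes, with a median of −0.46 beside −0.02 over all genes. In progenitor cells 8 of 9 were below 0 (52.4% of all genes, median −0.29 beside −0.02), and in hormone-sensing cells 5 of 6 (50.6% of all genes, median −0.23 beside −0.01). Leaving out 1 library turned the sign of 4 of these 9 members in basal cells (Acaca, Srebf1, Insig1 and Lpl) and of 7 of 9 in progenitor cells (all but Scd1 and Scd2). Both libraries labelled 4OHT were below both corn oil libraries for 4 of 9 members in basal cells (Scd1, Fasn, Acly and Plin2), where 17.6% of all genes tested were. In progenitor cells this held for Scd1 and Scd2 (2 of 9, against 17.5% of all genes), and in hormone-sensing cells for Plin2 (1 of 6, against 13.5%), shares near those of all genes. Fasn was the 1 member above in both in hormone-sensing cells, as were 17.0% of all genes, and 0 of 9 were above in basal and in progenitor cells (13.0% and 7.33% of all genes).

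Scd1 in basal cells, at 10.3 and 9.33 CPM with corn oil and 3.87 and 5.77 CPM in the libraries labelled 4OHT, had a log2 fold change of −0.95 ± 0.37 (unadjusted p = 0.0383, adjusted p = 0.999, edgeR). The progenitor level of Scd1 that free RNA would carry was also lower in the libraries labelled 4OHT, at a log2 of −0.48 ± 0.33 (adjusted p = 1, edgeR), and its part in the basal value was not tested. The difference of the effects between progenitor and basal cells, tested as an interaction, was 0.47 ± 0.28 for Scd1 and did not pass (adjusted p = 1, edgeR).

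Plin2 in basal cells was at 108 and 168 CPM with corn oil and 37.6 and 95.2 CPM in the libraries labelled 4OHT, a log2 fold change of −0.97 ± 0.51 (unadjusted p = 0.1, adjusted p = 0.999, edgeR). The groups did not overlap, and their means were 137.7 ± 42.2 CPM and 66.4 ± 40.7 CPM (SD, n = 2 each). In hormone-sensing cells Plin2 was at 64.0 and 47.6 CPM against 18.0 and 36.6 CPM, a log2 fold change of −1.02 ± 0.37 (unadjusted p = 0.0222, adjusted p = 1, edgeR), and −1.68, past the threshold, without 4OHT replicate 2. In progenitor cells it was −0.29 ± 0.30. The interaction between progenitor and basal cells was 0.86 ± 0.47 for Plin2 (adjusted p = 1, edgeR). None of 11434 genes passed in that test (0.0%), with 429 at an unadjusted p under 0.05 (3.75%) and 1 called by DESeq2. Plin2 passed at 1.56 without corn oil replicate 1 and at 1.53 without 4OHT replicate 2, so single libraries decide this call.

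Lpl was the member above 0 in basal cells, at 1.88 ± 1.31 (adjusted p = 0.999, edgeR), and this was the value carried by 1 cell of 4OHT replicate 1: without that library it was −1.44. The remaining members had treatment values between −0.72 and 0.23 in the 3 classes.

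**Figure D5:**
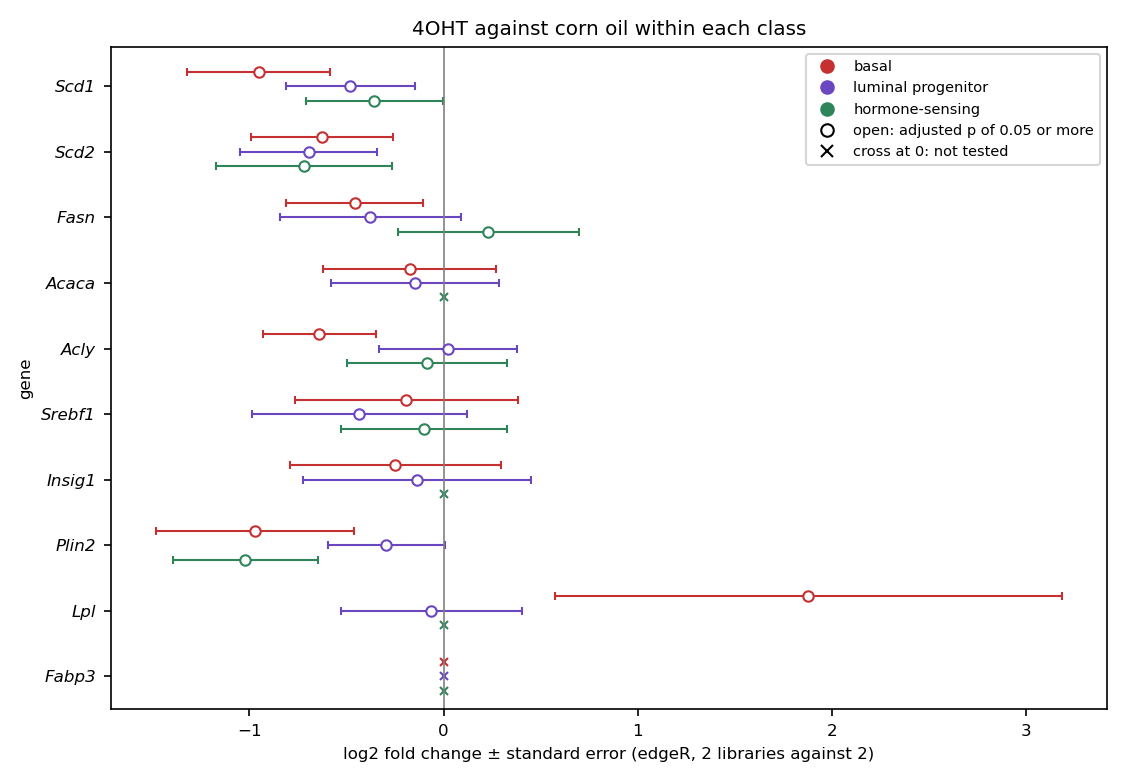
Log2 fold change of 4OHT against corn oil with its standard error (horizontal axis) for each gene (vertical axis) within basal, progenitor and hormone-sensing cells, 2 libraries against 2. All points are open because none passed the adjusted threshold, crosses at 0 mark genes that were not tested, and most points lie below 0, Lpl in basal cells being at 1.88.

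The widest split of Srebf1 and Insig1 followed the replicate numbers and not the injection. In basal cells Srebf1 was 2.72-fold higher in corn oil replicate 1 than in corn oil replicate 2, and 3.06-fold higher in 4OHT replicate 1 than in 4OHT replicate 2. In progenitor cells these ratios were 2.92 and 2.70, and in hormone-sensing cells 2.07 and 1.58. Insig1, which in basal cells was at 10.0 and 3.52 CPM with corn oil and 7.58 and 3.64 CPM in the libraries labelled 4OHT, gave ratios of 2.85 and 2.08 there. Both were therefore over 2-fold higher in both libraries numbered 1 than in both numbered 2 in basal cells (2 of the 8 members with a mean of at least 5 CPM, against 2.29% of 8071 genes), as was Srebf1 in progenitor cells (1 of 6, against 1.13% of 7361 genes). In hormone-sensing cells it held for none of 6 members (1.42% of 7878 genes). None of the 13 other SREBP regulators, none of the 11 sterol genes and none of the 11 further synthesis genes measured in basal cells did this, and Idi1, a gene of sterol synthesis, was the 1 of 14 sterol genes that did in progenitor cells. Under the same rule 0.595% of the 8071 genes in basal cells were lower in the libraries numbered 1. Those libraries also had the higher median UMIs per barcode, 5299.5 and 4242 against 3619 and 3055 (corn oil, then 4OHT). The labels do not say what a number marks, so depth, a batch, a litter or chance between mice cannot be told apart.

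Levels over the 12 class sums were also compared with those of up to 4141 other genes of at least 20 CPM, by Pearson correlation of log2 CPM. The genes most like Scd1 were Folr1 (r = 0.98) and Ctsh (0.98), and those most like Plin2 were C530043A13Rik (0.95) and Spp1 (0.94). Srebf1 was most like Hspa8, a heat shock protein (0.97), and Eps8l2 (0.95), and Insig1 most like Rlf (0.96) and Rnd3 (0.92). Scd2 was most like 2510039O18Rik (0.93), Fasn like Pebp1 (0.95), Acaca like 1810022K09Rik (0.94), Acly like Mtch1 (0.87) and Lpl like Wbp4 (0.78). The 12 sums come from 4 libraries and share their depth and class, so these values rank genes and are given without a test.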

How the data were processed

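Single-cell 3′ libraries (10x Chromium) of 4 mice were analysed, 2 per injection. The authors deposited raw UMI counts per gene and cell, made with bcl2fastq and Cell Ranger 3.0.1 on mm10 per the submitters' processing notes; cell calling, strand and use of introns are not given in the sources used here. Cells with at least 1000 UMIs were classed. Basal cells had at least 5 UMIs of Krt5, Krt14, Krt17 and Acta2 and over 3 times those of Krt8, Krt18 and Krt19, and luminal cells the reverse. Luminal cells with at least 3 UMIs of Ly6d, Fxyd2 and Gpx3, and more than of Wfdc18, Csn3 and Ltf, were hormone-sensing, the others progenitor. No doublet caller was run; leaving out the top 5% of cells by UMIs was an alternative. Counts were summed per library and class and tested with edgeR 4.0.16 (quasi-likelihood, TMM, filterByExpr, Benjamini-Hochberg, threshold 0.05; R 4.3.3), with library as a block between classes. The standard error is the log2 fold change over the square root of F. DESeq2 1.42.0 was an alternative. The edgeR step was tested on simulated data in which 200 genes changed by a log2 of 2. It recovered 69% with 16 false calls for 4OHT against corn oil in basal cells. Between progenitor and basal cells it recovered 92% with 9 false calls, and in the milk-gene comparison 80% with 10. Smaller changes were not simulated, nor were differences between libraries in the level of a gene. The values for the fits with a library block therefore do not cover such differences. Each class sum held 1297128 to 8402376 UMIs, and a floor of 3 counts was used for low values. Treatment p-values rest on 2 mice per group. Shares were compared after thinning to 2000 UMIs per cell. Named genes of other pathway lists were the most changed of those past the threshold, on the same side in all 4 libraries and with a mean of at least 20 CPM. The members and lists were chosen with earlier results of these data known.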

Additional observations from a re-analysis of the deposited data

Results flagged for a closer look

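Fasn, the fatty acid synthase, stood on opposite sides of corn oil in 2 classes: both libraries labelled 4OHT were below both corn oil libraries in basal cells and above both in hormone-sensing cells. Of all genes tested, 17.6% were below in basal cells and 17.0% were above in hormone-sensing cells. The share of all genes with both was not computed. The log2 fold change of Fasn in hormone-sensing cells exceeded that in basal cells by 0.69. This difference was not tested. The hormone-sensing sums held 9, 12, 12 and 23 Fasn UMIs, and the value there turned from 0.23 to −0.36 without cells that carried markers of other cell types, in that class mostly cells with Dcn.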

How the results depend on the processing

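Alternatives were another scaling, another tool, no filter on low counts, other rules for cells and leaving out each library; scaling by library totals alone was chosen after seeing the data. Counts of genes past the threshold for 4OHT against corn oil moved from 0 in basal cells to 38 with DESeq2 and 93 without the filter, from 0 in progenitor cells to 1 and 39, and from 1 in hormone-sensing cells to 7, 59 and, with a minimum of 2000 UMIs, 0. The interaction moved from 0 to 1 and 55. The milk-gene comparison moved from 603 to 954 without the filter, 357 without the top 5% of cells, 11 without the library block and 289 with the highest 20% of cells. Leaving out 1 library gave 17 to 127 calls in basal, 31 to 64 in progenitor and 4 to 80 in hormone-sensing cells, 0 to 63 for the interaction and 212 to 605 for the milk-gene comparison. An arm then had 1 library, assumed to vary like the others.

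With the replicate number as a block, 167 genes passed in basal, 9 in progenitor and 3 in hormone-sensing cells and 14 for the interaction, and Plin2 in basal cells was −1.11 (adjusted p = 0.0207, edgeR). Deviations of same-numbered libraries correlated at 0.56, 0.32 and 0.22 in the 3 classes over only 2 pairs, and the labels do not say that a number pairs mice. The block turned Acly to −0.017 and Insig1 to 0.0078 in progenitor cells and Acaca to −0.034 in the interaction.

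Mean shares of cells with a Scd1 UMI, thinned to 1000 UMIs and unthinned, were 0.772% and 2.74% in basal, 13.0% and 34.7% in progenitor and 3.29% and 15.1% in hormone-sensing cells. For Plin2 they were 7.03% and 20.8%, 30.5% and 61.3%, and 3.50% and 13.9%. The depth read from each cell sets these levels.

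No called value changed sign. Values that did were not called. With the stricter class rule, Acaca was 0.35 and Lpl 0.37 for 4OHT in progenitor cells, Scd2 was 0.077 and Acaca −0.11 between progenitor and basal cells, Srebf1 0.012 between hormone-sensing and basal cells, and Scd2 0.036 and Fasn −0.063 in the interaction. Scaling by totals gave −0.080 for Acly with 4OHT in progenitor cells, −0.069 for Acaca and −0.19 for Insig1 between progenitor and basal cells, and −0.071 for Acaca in the interaction. Without cells carrying other markers Fasn was −0.36 with 4OHT in hormone-sensing cells, Lpl was 0.37 between hormone-sensing and basal cells and 1.71 in the interaction, and Acaca −0.013 there. Without the top 5% of cells Fasn was −0.12 and Srebf1 0.057 with 4OHT in hormone-sensing cells, and Insig1 −0.15 in the interaction. Acaca in the interaction was also −0.0050 with DESeq2's size factors, −0.029 with DESeq2, −0.080 with a minimum of 2000 UMIs and −0.0084 with the mitochondrial filter.

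Leaving out 1 library turned these 4OHT values: in basal cells Acaca (−0.62 to 0.45), Srebf1 (−1.06 to 0.64), Insig1 (−0.74 to 0.63) and Lpl (−1.44 to 4.35); in progenitor cells Fasn (−0.76 to 0.17), Acaca (−0.43 to 0.19), Acly (−0.40 to 0.37), Srebf1 (−1.24 to 0.60), Insig1 (−0.79 to 1.17), Plin2 (−0.58 to 0.081) and Lpl (−0.38 to 0.36); in hormone-sensing cells Scd1 (−0.66 to 0.061), Acly (−0.74 to 0.31) and Srebf1 (−0.47 to 0.40). In the interaction it turned Scd2 (−0.62 to 0.40), Fasn (−0.055 to 0.35), Acaca (−0.35 to 0.32), Insig1 (−0.025 to 0.55) and Lpl (−3.68 to 1.01). It also turned Scd2 between progenitor and basal cells (−0.28 to 0.13), Srebf1 between hormone-sensing and basal cells (−0.26 to 0.042) and Acaca in the milk-gene comparison (−0.25 to 0.61). The cause was not tested for any of these.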
